A study of Rattus norvegicus with 60 samples.

Results

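The DNA methylation of white blood cells (WBC) was compared between female Sprague-Dawley rats with prenatal alcohol exposure (PAE) and control (C) animals on postnatal day 22. The comparison used the meDIP-seq libraries titled as P22 WBC, namely PAE 13 to 16, C 13 to 16, and pair-fed (PF) 13, 14, and 16, which made 11 of the 60 samples of the series. PF 15 was left out. The dams of PAE animals had a liquid diet with ethanol during gestation, PF dams received a matched ration of a liquid diet without ethanol, and C dams ate a pelleted version of that control diet freely. PF animals were therefore the reference for reduced food intake, and all animals came from the same outbred stock. The cells were isolated on Ficoll-Paque, which enriches mononuclear cells, and at most 1 female per litter was taken. Within a group each number marked 1 animal, whose hypothalamus was also profiled.

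Methylation of cytosine in CpG dinucleotides is laid down by DNA methyltransferases and copied at cell division, and it can be removed by oxidation through the TET enzymes. In blood, each lineage of lymphocytes and monocytes carries its own methylation pattern, so that a profile of mixed cells reflects both the state of the cells and their proportions. Fewer cells of a type and a lower level per cell cannot be told apart in the present samples. In meDIP-seq an antibody against 5-methylcytosine pulls down methylated fragments, and the number of fragments that pile up at a place rises with methylation and with the density of CpG sites.

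The WBC libraries held between 11910384 and 15467157 fragments and between 163718 and 210295 peaks on chromosomes 1 to 20. The shallowest library with the fewest peaks was PF 16. Peaks were merged over the 11 libraries into 259057 regions with a peak in at least 3 of them, with a median length of 667 bp, and 70773 regions had a peak in every library. The measure of a region was its height, the largest number of fragments over 1 of its peaks, scaled between libraries. A library without a peak in a region was set to 5.86 fragments, the median over libraries of the smallest scaled height, and 31.0% of all values stood at this floor. As a check of the tissue, regions were taken that all the other WBC libraries held and that the P22 hypothalamus lacked. Each library used held a peak in 86.7% to 95.2% of them, while PF 15 held one in 16.3%.

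The library labelled C 14 went against the sex of the animals. It held 1631 peaks on chromosome Y, while the other 10 WBC libraries held between 47 and 146. It also had the fewest peaks on chromosome X, 2176, against 3815 to 5269 in the other libraries. The hypothalamus library of the same animal had 71 peaks on chromosome Y. Over the 25999 regions with a peak in all of these WBC and all P22 hypothalamus libraries, the deviations of the C 14 WBC library from the mean correlated at 0.05 with those of its own hypothalamus library and at -0.02 to 0.03 with those of the other animals, a description with no test. In 9 of the 11 WBC libraries the highest correlation was with the own hypothalamus library, and the exceptions were C 13 (0.068 with its own, 0.081 with another) and PAE 14 (0.0251 with its own and with another). The part of this library in the results was examined by leaving it out. Among the hypothalamus libraries, PAE 16 held the most chromosome Y peaks, 201, and the fewest chromosome X peaks, 2647.

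**Figure D1:**
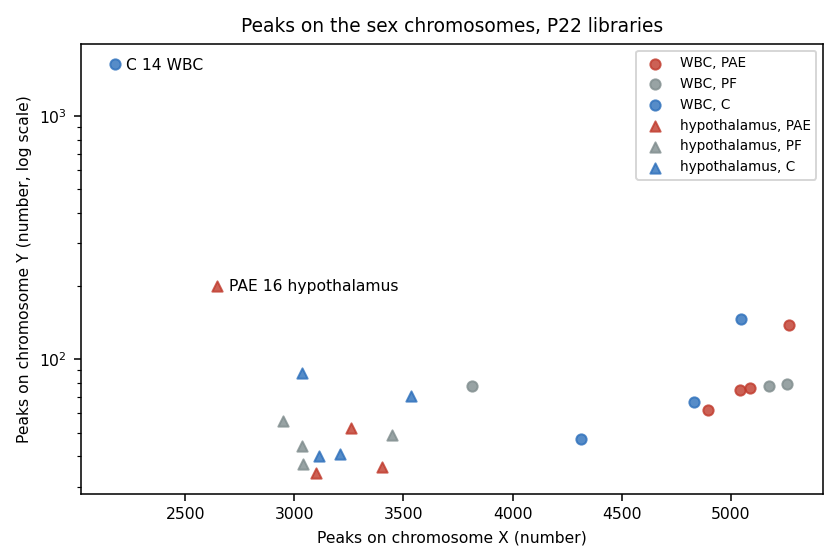
Number of peaks on chromosome X (horizontal axis) and on chromosome Y (vertical axis, log scale) in each P22 library, with circles for WBC and triangles for hypothalamus and colours for the prenatal groups. The C 14 WBC library stands alone with 1631 chromosome Y and 2176 chromosome X peaks.

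The number of peaks and the DNA they covered did not separate the 3 groups. Both were taken without adjustment for depth, and PF 16 and C 13, the libraries with the fewest fragments, also had the fewest peaks. PAE libraries held 199436, 197730, 203362, and 206075 peaks, and C libraries 182002, 206357, 190919, and 203599. PF libraries held 210295, 207951, and 163718. The groups overlapped, with 201651 ± 3776 peaks in PAE (SD, n = 4) and 195719 ± 11350 in C (SD, n = 4), and the difference did not exceed the spread between animals (two-sided exact permutation test, p = 0.457, adjusted over 6 tests p = 0.971). Peaks covered 112 ± 3.17 Mb in PAE (SD, n = 4), 109 ± 5.70 Mb in C (SD, n = 4), and 108 ± 11.5 Mb in PF (SD, n = 3), where the exact permutation test of PAE vs. C gave p = 0.514. The smallest p that 4 against 4 animals allow is 0.0286. The likeness of libraries did not follow the groups either, the mean correlation of log2 heights being 0.595 within groups and 0.596 between them. An exact permutation test over all 11550 assignments of the labels gave p = 0.743 for this difference.

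Region by region, PAE and C animals were compared at each locus. In a limma model with the group and the breeding cohort, 2 regions passed an FDR of 0.05 in PAE vs. C, both higher in PAE, which was 0.000772% of the regions tested. On a single simulated set in which no region differed, with normal noise around each region's mean, the same model made no fewer calls than this. That set was not built to hold a whole group at the floor, as the C libraries were at both calls. An unadjusted p under 0.05 was reached by 11788 regions (4.55%), with 6534 higher (2.52%) and 5254 lower (2.03%) in PAE. This excess of higher regions turned with scaling by fragments (5665 higher, 5956 lower), without PAE 16 (6043 higher, 6305 lower), and over regions with a peak in every library (1682 higher, 1701 lower). A region with peaks in fewer than 3 libraries outside the group where it was high entered only through that group, and its p is no evidence of a difference. Among the regions described with a p or FDR of PAE vs. C, this holds for chr20:27258014, chr5:171255848, chr5:74754406, chr12:30105896, chr13:2538728, chr13:2214879, and the regions of Ppm1l, Ptprt, Msra, Adh4, Fgf9, and Ctnnbip1. It also holds for chr4:1054947, whose p is not given. Counts and shares of regions at an unadjusted p, here and below, include regions of this kind. The median absolute difference of all regions was 0.24 on the log2 scale, smaller than the median standard error of 0.39. The PAE vs. PF comparison called 7 regions (0.0027%) and the PF vs. C comparison called 15 (0.00579%), the PF libraries serving in both. No region had the pattern that the study called PAE-specific, an FDR under 0.05 against both C and PF without one between PF and C, and 2725 regions (1.05%) had it at unadjusted p under 0.05. Of these 1698 were higher (0.655%) and 1027 lower in PAE (0.396%). At an FDR of 0.05 the pattern numbered 2 regions with the fold enrichment in place of the height, and 0 to 4 when 1 library was left out. Leaving out 1 library gave 2 to 73 calls in PAE vs. PF and 9 to 84 in PF vs. C. The PAE vs. C count rested on single libraries, with 13 calls without C 16, 7 without PAE 15, 4 without C 13, PAE 13, PAE 14, or PAE 16, and 0 without PF 13. Without C 14 it was 3, and without C 14 and PF 16 together it was 0. No call remained either with the extraction round in place of the breeding cohort, within extraction round 9, or with PAE and C libraries only. PAE 13 and PAE 16 were extracted in round 10, which held no C library.

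In WBC, the 2 regions had a called peak in every PAE and every PF library used and in no C library. The first lies at chr5:3791601-3792030 (rn6). Its heights were 34.5, 32.3, 31.2, and 31.0 fragments in PAE 13 to 16 and 45.5, 40.8, and 38.2 in PF 13, 14, and 16. No C library had a peak there, so that PAE and C did not overlap while PF lay above PAE. The difference in log2 height between PAE and C was 2.46 (SE 0.23, limma FDR = 0.0064). PF differed from C by 2.81 (limma FDR = 0.000918), and PAE from PF by -0.35 (limma FDR = 0.968).

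The second region lies at chr13:90145507-90146359. PAE heights were 22.3, 72.6, 57.5, and 41.4 fragments and PF heights were 102, 105, and 59.6, again with no peak in any C library. The spread within PAE was wide, and PAE and PF overlapped. PAE exceeded C by 2.92 on the log2 scale (SE 0.31, limma FDR = 0.0218) and PF exceeded C by 3.86 (limma FDR = 0.000918). Within extraction round 9 alone, the PAE and C means differed by 3.46, and the fit within this round gave no call (limma FDR = 0.105). This call was lost without C 13, C 14, C 15, PAE 14, PAE 15, PAE 16, PF 13, or PF 14, with FDR values between 0.0544 and 0.0877 and differences between 2.67 and 2.94. The call at chr5:3791601-3792030 was lost without PF 13 (limma FDR = 0.0591, difference 2.44) and with the fold enrichment in place of the height (limma FDR = 0.816, difference 1.41). Over 25 alternatives the call at chr5:3791601-3792030 held in 18 and that at chr13:90145507-90146359 in 11.

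A height at the floor has no spread, and the model measured both calls against C libraries that were all at this value. The 7 PAE vs. PF calls and the 15 PF vs. C calls likewise had a whole group without a peak. No annotation of the rn6 build was used here, so these regions are given by position.

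A further 3 regions completed the 5 with the smallest p among those higher in PAE, and in each of them PF animals stood with PAE animals. At chr19:47223465-47224054, heights were 26.4, 28.2, 26.3, and 38.5 in PAE and 35.8, 23.2, and 28.1 in PF. At chr19:56458248-56458714, they were 30.5, 28.2, 28.3, and 22.6 in PAE and 27.1, 32.4, and 23.6 in PF. At chr11:81904750-81905160, they were 23.4, 35.3, 27.3, and 27.3 in PAE and 24.2, 25.9, and 32.6 in PF. No C library had a peak in any of the 3, and their differences between PAE and C were 2.33, 2.21, and 2.25 (limma FDR = 0.0603 for each).

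The 5 regions with the smallest p among those lower in PAE had no peak in any PAE library and a peak in every C library. In 4 of the 5 every PF library had a peak as well. The PF libraries entered the error that ranked the regions in both directions, so where they stood is a description only. All 4 C and no PAE libraries had a peak in 351 regions, and there 47 had a peak in all 3 PF libraries and 73 in none. At chr18:78146602-78147652, C heights were 25.8, 34.4, 27.5, and 21.5 fragments and PF heights 23.2, 25.9, and 28.1. The difference between PAE and C was -2.20 (SE 0.29, limma FDR = 0.0902) and between PAE and PF -2.12 (limma FDR = 0.195). At chr3:67856777-67857288, C heights were 21.7, 23.2, 28.5, and 25.4 and PF heights 26.1, 19.5, and 23.6. At chr10:75167520-75167963, they were 25.8, 25.1, 26.5, and 20.5 in C and 20.3, 21.3, and 20.2 in PF. At chr2:119032909-119033498, they were 21.7, 24.2, 22.4, and 25.4 in C and 25.2, 21.3, and 24.7 in PF. The first and the second of these had differences between PAE and C of -2.07 and -2.06, the third differed from PF by -2.02, and the limma FDR of PAE vs. C was 0.229 for each. The exception was chr20:27258014-27258455, where C heights were 42.4, 30.7, 30.6, and 29.3 and no PF library had a peak. Its difference between PAE and C was -2.49 and that between PF and C -2.50 (limma FDR = 0.229 and 0.188).

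**Figure D2:**
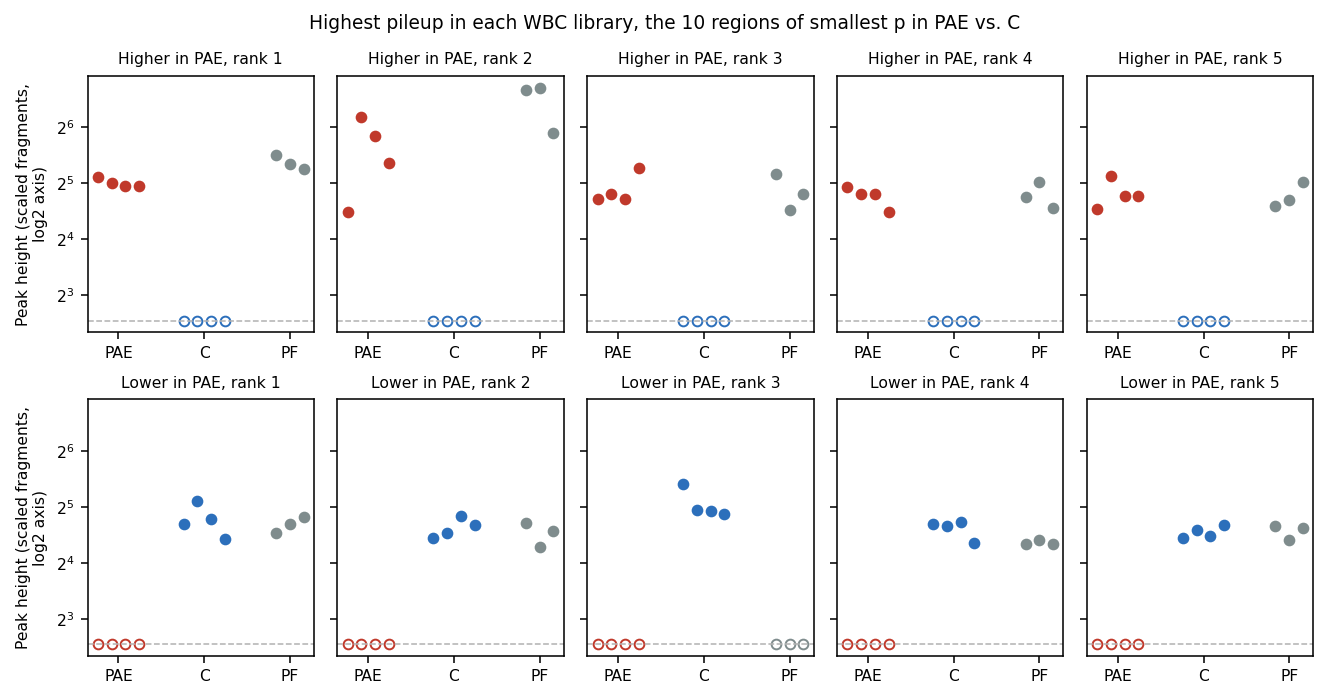
Scaled peak height (vertical axis, fragments on a log2 axis) in each PAE, C, and PF library for the 5 regions of smallest p higher in PAE (upper row) and the 5 lower in PAE (lower row), in the order in which p rises. Open symbols on the dashed line are libraries without a peak, drawn at the floor of 5.86. The PF libraries lie with PAE in the upper row and with C in 4 of the 5 panels of the lower row.

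The same 10 regions were also measured in the hypothalamus of these animals, where 7 had a peak in at least 3 libraries. Of these, 3 had the same sign as in WBC, and 2 had a limma unadjusted p under 0.05 in a fit over regions with such peaks, against 4.79% of all of those, while 1 had it in the fit over all WBC regions that gave the values printed here. The region that had it in the first fit alone, chr10:75167520-75167963, was higher in PAE there by 1.07 and lower in WBC, and the difference between tissues was not tested. At chr13:90145507-90146359, hypothalamus heights were 24.4, 57.7, 46.5, and 30.4 in PAE 13 to 16, 21.1 and 13.2 in C 13 and C 14, and C 15 and C 16 had no peak. PF 13 to 16 had 77.4, 84.6, 76.6, and 45.1 there, so PF stood above C as in WBC. All PAE animals were above all C animals in this tissue too, by 1.79 on the log2 scale (SE 0.36, limma unadjusted p = 0.000731, FDR = 0.939 over all regions). Without PAE 16, whose hypothalamus library stood apart on the sex chromosomes, the difference was 1.80. The 2 tissues came from the same animals and are no independent support. At chr5:3791601-3792030, the hypothalamus had a peak in 1 of 4 PAE and 2 of 4 C libraries (difference -0.47, SE 0.67, limma unadjusted p = 0.505). Among the 100 regions of smallest p in WBC, 54 had a peak in at least 3 hypothalamus libraries, and 33 of these had the same sign there, 61.1%, against 50.6% of all 158635 such regions. Among the 1000 of smallest p, 293 of 549 had the same sign, 53.4%.

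Peaks were also counted without their heights. A peak in every PAE and no C library was found in 480 regions (0.185%), and the reverse in 351 (0.135%). Together they made 2.83% of the 29386 regions with a peak in exactly 4 of these 8 libraries. Of the 480 regions, 98 had no peak in any PF library (0.0378% of all regions) and 59 had one in all 3. Of the 351 regions, 73 had no peak in any PF library and 47 had one in all 3 (0.0181% of all regions). The median height of these regions was low, 13.9 fragments in PAE for the 480 and 13.8 in C for the 351, against 18.4 over all peaks in regions. All 4 heights were at least 20 fragments in 31 of the first and 26 of the second. Without C 14, where 3 C libraries had to meet the condition, the counts were 1099 and 750.

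**Figure D3:**
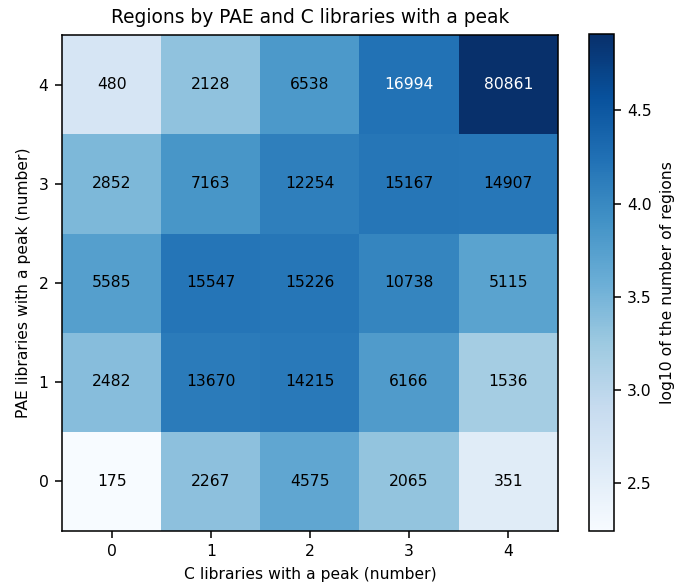
Number of regions by how many of the 4 PAE libraries (vertical axis) and of the 4 C libraries (horizontal axis) held a peak, with the colour giving the log10 of the number. The 480 regions in the upper left corner and the 351 in the lower right corner are the complete separations, and 80861 regions had a peak in all 8 libraries.

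The largest differences among these complete separations included 3 regions not yet named. At chr5:171255848-171256303, PAE heights were 40.6, 35.3, 34.1, and 36.7 fragments, PF 13 and PF 16 had 33.9 and 39.4, and PF 14 had no peak (PAE minus C 2.64, SE 0.47, limma FDR = 0.552). At chr5:74754406-74754865, C heights were 38.2, 44.6, 33.6, and 27.4, and PF 16 alone of its group had a peak, of 22.5 (PAE minus C -2.59, SE 0.45, limma FDR = 0.441). At chr12:30105896-30106350, C heights were 28.9, 27.9, 33.6, and 27.4, and PF 13 and PF 14 had 25.2 and 31.5 (PAE minus C -2.32, SE 0.44, limma FDR = 0.645). In each of these the PF group was split between the levels of PAE and C, and none passed the FDR threshold.

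The study listed 299 regions that differed with PAE in both tissues and 118 that differed in the hypothalamus across ages. The first list was chosen in part on these WBC libraries, so its counts are a description and no independent evidence of a direction. Of its 291 regions on chromosomes 1 to 20, 233 overlapped a WBC region. In PAE vs. C 75 of the 233 had an unadjusted p under 0.05 (32.2%, against 4.55% of all regions), with 40 higher and 35 lower in PAE. Over all 233 regardless of p, 103 were higher and 130 lower, with a median difference of -0.16. The median absolute difference was 0.62 on the log2 scale, against 0.24 over all regions, and the smallest FDR was 0.783. In PAE vs. PF 76 of them reached an unadjusted p under 0.05 (32.6%, against 5.07%), and in PF vs. C 7 did (3.00%, against 4.94%), and the 3 comparisons share their libraries. Without C 14 the PAE vs. C share was 26.6%. Chromosome 13 held 35 of the 233 regions and 21 of the 75. Of the second list, 114 regions lay on these chromosomes and 51 overlapped a WBC region, of which 2 were higher and 2 lower in PAE at unadjusted p under 0.05 (7.84%). Without C 14 this share was 2.08%.

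For 3 loci of the first list the study had designed bisulfite pyrosequencing assays, in which unmethylated cytosine is read as thymine. Their sequencing primers are shown because they locate these assays. A pyrosequencing primer anneals beside the CpG sites that are read. Each whole primer is given in lower case, 5′ to 3′, as designed for converted DNA, and holds no CG itself.
Adh4 S1: atggggaaagatgataata
Adh4 S2: agataagtagtatttattgttgtatt
Fgf9 S1: tttgggttattgttgttaaa
Ctnnbip1 S1: tgtgtggagtagtaga
Ctnnbip1 S2: gtatttttagattatgatagagttatg

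Adh4 encodes an alcohol dehydrogenase, which oxidises ethanol and retinol. Its region, chr2:243719476-243720233, spans an intron/exon boundary and the 3′ UTR in the annotation of the study. No PAE library had a peak there, C 14, C 15, and C 16 had heights of 15.8, 15.3, and 12.7 fragments, C 13 had no peak, and PF 13 and PF 14 had 13.5 and 19.5. C 13 thus lay with the PAE animals, and the difference between PAE and C was -0.98 (SE 0.46, limma unadjusted p = 0.0515, FDR = 0.982). Fgf9 encodes a secreted fibroblast growth factor, and its region, chr15:38377629-38378027, lies in an intron. No PAE library had a peak, C 13 and C 14 had 13.4 and 18.6, and PF 13 and PF 14 had 20.3 and 15.7. The peaks of C and PF all came from the first breeding cohort, in which PAE and C differed by -1.43, and the difference over both cohorts was -0.72 (SE 0.40, limma unadjusted p = 0.0914). Ctnnbip1 encodes an inhibitor of the binding of beta-catenin to its transcription factors, and its region, chr5:166485057-166485637, holds the 5′ UTR and first exon. PAE 14, PAE 15, and PAE 16 had 22.2, 24.4, and 17.9 fragments, C 13 and C 14 had 19.6 and 19.5, and the other PAE, C, and PF libraries had no peak. The difference between PAE and C was 0.53 (SE 0.57, limma unadjusted p = 0.372), with opposite signs in the 2 cohorts, -0.78 and 1.83, and PAE exceeded PF by 1.45 (limma unadjusted p = 0.0346, FDR = 0.968).

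Of the 108 regions of both lists that lay in genes, 50 were placed in 4 groups by the known roles of the genes, and 58 were in none. The shares to set beside the counts are 4.55% of all regions and 32.2% of the first list at unadjusted p under 0.05 in PAE vs. C. Among the genes of immune signalling, 9 of 13 listed regions had a WBC region, and at unadjusted p under 0.05 1 was higher, 1 was lower, and 7 did not pass (22.2% at p under 0.05). The higher one lay in Tifa, an adaptor that activates NF-kB signalling, at chr2:232135456-232136325 over an intron/exon boundary and the 3′ UTR. Its heights were 26.4, 29.2, 22.4, and 18.8 in PAE, 16.5, 19.5, and 14.7 in C 13, C 14, and C 16, and C 15 had no peak. PAE 16 was below C 14, so the groups overlapped, and the difference was 0.89 (SE 0.34, limma unadjusted p = 0.0187). The lower one lay in an intron of Rassf5, a Ras effector in lymphocyte adhesion, at chr13:48019856-48020481. Heights were 15.2, 12.1, 15.6, and 16 in PAE, 18.6, 21.4, 24.5, and 26.4 in C, and 26.1, 32.4, and 27.0 in PF. Every library had a peak and PAE did not overlap either other group. The difference was -0.62 against C (SE 0.22, limma unadjusted p = 0.0135, FDR = 0.982) and -0.99 against PF (limma unadjusted p = 0.00101, FDR = 0.709).

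Among the genes of alcohol and xenobiotic metabolism, 2 of 4 listed regions had a WBC region, and neither passed. Beside Adh4, the region of Msra, which repairs oxidised methionine, at chr15:47717609-47718058 had peaks in PAE 13 and PAE 15 (15.2 and 18.5 fragments), C 13 (12.4), and PF 16 (13.5). The difference was 0.49 (SE 0.48, limma unadjusted p = 0.323), and the groups overlapped.

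Among the genes of signalling and growth factors, 9 of 10 listed regions had a WBC region, with 1 higher, 1 lower, and 7 that did not pass at unadjusted p under 0.05 (22.2% past it). The region in an intron of Ppm1l, a serine/threonine phosphatase, at chr2:166074371-166074911 had heights of 13.2, 13.1, 15.6, and 8.46 in PAE. In the other groups C 15 alone had a peak, of 8.16. The region thus entered only through PAE, and the 1 higher counted above is no evidence of a difference. The difference was 0.95 (SE 0.31, limma unadjusted p = 0.00785), and PAE lay above C in every animal, though PAE 16 by only a small margin over C 15. The region in an intron of Ptpn14, a tyrosine phosphatase, at chr13:108788513-108789633 was tall in every library. Heights were 56.9, 47.4, 46.8, and 49.8 in PAE, 76.5, 64.1, 54.0, and 62.6 in C, and 62.9, 76.9, and 61.9 in PF. PAE 13 was above C 15, and the difference was -0.35 (SE 0.12, limma unadjusted p = 0.0113). With the fold enrichment in place of the height it was 0.05, of opposite sign.

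Among the genes of neuronal adhesion and excitability, 18 of 23 listed regions had a WBC region, with 1 higher, 5 lower, and 12 that did not pass at unadjusted p under 0.05 (33.3% past it). The median difference was -0.53, against 0.14 in the immune, -0.25 in the metabolic, and 0.42 in the signalling and growth factor group, -0.16 over the first list, -0.09 over all listed regions in genes, and 0.02 over all regions. The 5 lower regions lay in Ptprt, Magi2, Cntnap5c, Sema3e, and Ano4, and the higher one in Dscam, a cell adhesion molecule. Ptprt encodes a receptor tyrosine phosphatase, and its region in an intron, chr3:158114409-158114835, had no peak in PAE. C heights were 18.6, 20.5, 22.4, and 19.5, PF 13 and PF 14 had 33.9 and 21.3, and PF 16 had none. The region entered only through C, so its place among the 5 lower is no evidence of a difference. The difference between PAE and C was -1.79 (SE 0.47, limma unadjusted p = 0.0018, FDR = 0.982) and -1.38 against PF (limma unadjusted p = 0.0168). Magi2 encodes a synaptic scaffold protein, and its region in an intron, chr4:10998534-10999480, had heights of 31.5, 25.2, 15.6, and 19.7 in PAE, 37.2, 34.4, 34.7, and 39.1 in C, and 29.0, 37.1, and 28.1 in PF. PAE lay below C in all animals and overlapped PF through PAE 13, with a difference of -0.71 against C (SE 0.20, limma unadjusted p = 0.00266) and -0.44 against PF (limma unadjusted p = 0.0583). Of 108 listed regions in genes in all, 74 had a WBC region, 8 higher, 12 lower, and 54 that did not pass at unadjusted p under 0.05 (27.0% past it). The regions in none of the 4 groups, 36 with a WBC region, had 5 higher and 5 lower. None passed an FDR of 0.05.

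**Figure D4:**
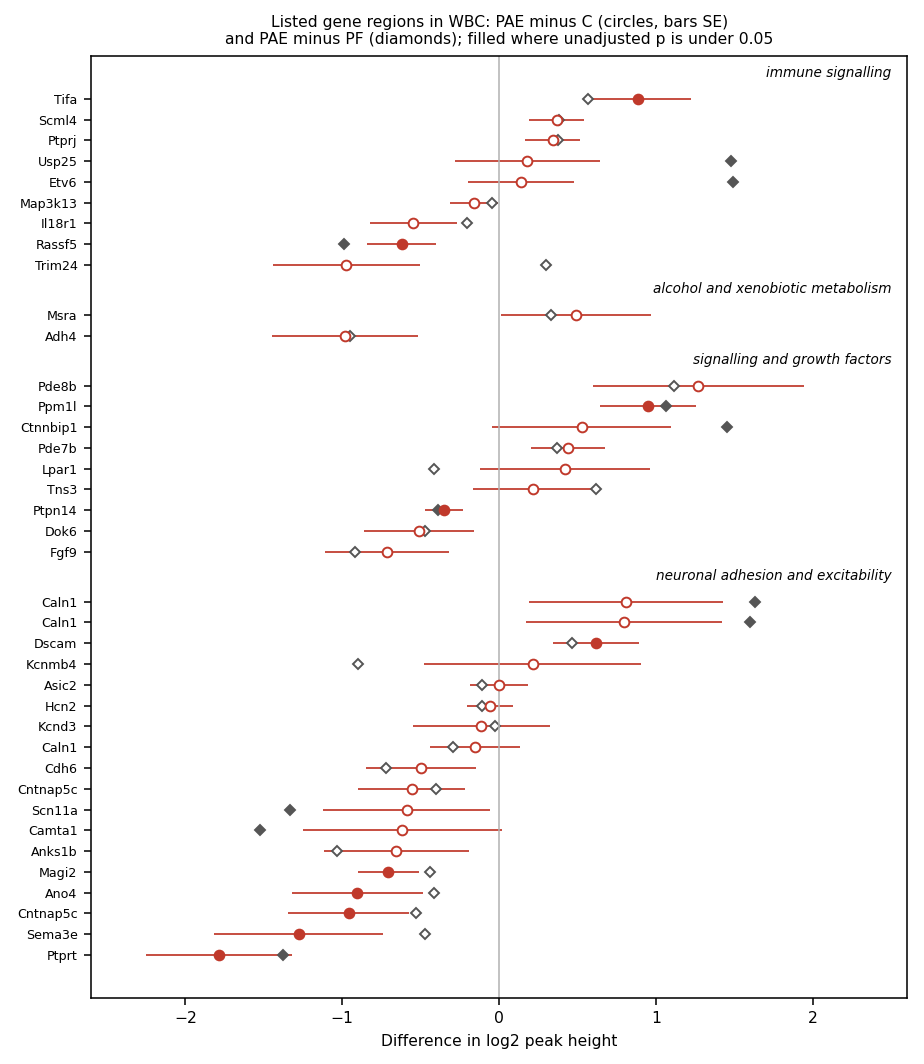
Difference in log2 peak height between PAE and C in WBC (circles, with bars of 1 SE) and between PAE and PF (diamonds) for the regions of the genes in the 4 groups, filled where the unadjusted p was under 0.05. All 4 groups lie on both sides of 0, with Ptprt lowest at -1.79.

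Differences were also counted along the chromosomes in windows of 1 Mb with at least 20 regions, of which there were 2576. Over all regions 0.96% had an unadjusted p under 0.01. The window with the highest share, at 2 to 3 Mb of chromosome 13, had 4 of 55 regions (7.27%), 2 higher and 2 lower in PAE. Both higher regions, described below, entered only through PAE, so the share and rank of this window rest in part on built-in differences. The window held 6 regions of the first list, which was chosen in part on these libraries, and 3 of the 4 were among them, including both described here. The region at chr13:2538728-2539280 had low heights of 11.2, 13.1, 8.77, and 14.1 fragments in PAE, and outside PAE only C 16 had a peak, at the floor of 5.86 (difference 0.98, SE 0.26, limma unadjusted p = 0.00197). The region at chr13:2214879-2215562 had 12.2, 13.1, 8.77, and 16 in PAE, and peaks of 6.12 in C 15 and 6.48 in PF 14 (difference 1.05, SE 0.29, limma unadjusted p = 0.00252). Both regions were seen in PAE at heights near the limit of peak calling.

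The next window, at 1 to 2 Mb of chromosome 4, had 3 of 42 regions (7.14%), all higher in PAE. At chr4:1054947-1055443, PAE heights were 10.2, 14.1, 13.6, and 11.3, and no C or PF library had a peak. This region entered the comparison only through PAE, so a difference was built in (PAE minus C 1.06) and its p is not given. The count, share, and rank of the window rest in part on this region. At chr4:1016259-1016864, they were 21.3, 29.2, 22.4, and 21.6 in PAE, 16.7 and 14.3 in C 14 and C 15, and 28.1, 23.2, and 22.5 in PF (SE of PAE minus C 0.36, limma unadjusted p = 0.00298). PF thus stood with PAE in the second region and with C in the first. A window at 22 to 23 Mb of chromosome 13 had 2 of 31 regions (6.45%), both lower in PAE, a share that 1 window of chromosome 5 also had. At chr13:22530442-22531347, heights were 56.9, 59.5, 60.4, and 81.8 in PAE, 96.1, 98.5, 83.6, and 84.1 in C, and 72.6, 61.1, and 58.5 in PF (PAE minus C -0.50, SE 0.13, limma unadjusted p = 0.00193). At chr13:22214608-22215629, PAE 13 and PAE 14 had 13.2 and 24.2, PAE 15 and PAE 16 had no peak, and C heights were 40.3, 15.8, 31.6, and 37.1 (PAE minus C -1.52, SE 0.46, limma unadjusted p = 0.00496). No region of these windows passed the FDR threshold, the FDR of those named other than chr4:1054947-1055443 being 0.982.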

How the data were processed

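The authors aligned the meDIP-seq reads to rn6 with BWA, filtered them with SAMtools, and called peaks per sample, without input DNA and at a q-value of 0.05, using MACS2 (version 2.1.0.20140616). The deposited signal is the unscaled pileup, or height, of fragments at a summit. The authors also deposited a fold enrichment, a ratio to the local background. Per the file headers, p-values and q-values are on the −log10 scale. Peaks on chromosomes 1 to 20 were merged at 1 bp overlap, keeping those found in 3 or more samples. A change below the peak threshold cannot be seen. The highest pileup per region was divided by the sample's median ratio over regions common to all samples. It was floored at 5.86 fragments (7.02 in hypothalamus) and put on the log2 scale. Where a group lacks peaks, the size of a difference rests on this floor and can be too small or too large. Groups were compared with limma 3.58.1 in R 4.3.3 (trend, group and breeding cohort, Benjamini-Hochberg FDR over all regions). Single values were compared with exact permutation tests written in Python 3.11.15, and their p-values were adjusted with scipy 1.17.1. When tested on a single simulated set without a group difference, the model also called a few regions, so passing the FDR threshold was not proof of a difference. The authors fitted edgeR to reads per kilobase after removing extraction round with ComBat. Peak lists do not give reads, and the model here did not correct for extraction round, which entered as an alternative. Named regions were the 5 of smallest p in each direction, the 3 largest complete separations each way, the 2 of smallest p in 3 windows, and listed genes by role, in full the pyrosequenced loci and the 2 of smallest p per role. Regions and lists were chosen with earlier results of these data known. Extraction round 9 held PAE 14 and 15, C 13 to 15, and PF 14 and 16. The listed regions, their genes, and the primers come from the study's tables. Files of 36 samples of younger animals were not used.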

Additional observations from a re-analysis of the deposited data

Results flagged for a closer look

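In 68 groups of 4 values examined, 8 held an animal that stood far from the other 3 of its group. A chance rate of about 1 in 20 groups holds for independent groups and cannot be set beside this count. The groups shared libraries and came in part from regions chosen for their values. The library labelled C 14 had 1631 chromosome Y peaks, far from the other C libraries. At chr19:47223465-47224054, PAE 16 had a height of 38.5 fragments while the other PAE animals had 26.3 to 28.2. At chr20:27258014-27258455, C 13 stood above its group at 42.4, and at chr4:1016259-1016864 PAE 14 did at 29.2. PAE 16 had 81.8 at chr13:22530442-22531347, above the other PAE animals. In the other 3 cases 1 C library alone had a peak while the rest of its group had none, which were C 15 at chr13:2214879-2215562 (6.12), C 13 at the Msra region (12.4), and C 15 at the Ppm1l region (8.16). The rest of the group stood at the same floor there, so these flags were fixed in advance.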

How the results depend on the processing

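Calls at an FDR of 0.05 are few and depend on the processing, and the cause of each change was not tested. PAE vs. C gave 1 call with a q-value under 0.001 or with a peak in every sample, 7 without the breeding cohort, and 0 with the extraction round in its place, with PAE and C only, within extraction round 9, with PF 15, and without C 14 and PF 16 together (chosen after seeing the data). PAE vs. PF gave 15 with fold enrichment, 3 with the stricter q-value, 0 with a peak in every sample, 11 with the floor lowered by 1 on the log2 scale, and 3 within extraction round 9. PF vs. C gave 4, 8, 0, 25, and 6 under these settings, 9 with a peak in at least 5 samples, 8 with PF 15, and 7 without C 14 and PF 16. Under the replicate block PAE vs. PF had 2 calls, and PF vs. C had 7. PAE-specific regions numbered 2 with fold enrichment. Leaving out 1 library gave 0 to 13 calls in PAE vs. C, 2 to 73 in PAE vs. PF (61 without PF 13, 73 without PF 14, 22 without PF 16), 9 to 84 in PF vs. C (67, 84, and 25), and 0 to 4 PAE-specific regions (4 without PAE 15). It gave 902 to 1253 regions with a peak in every remaining PAE and no C library and 686 to 998 of the reverse, since fewer libraries had to meet the condition, and 25.8% to 34.8% of tissue-concordant and 2.08% to 11.8% of developmental regions at unadjusted p under 0.05. Without a library, peaks per sample differed by 1359 to 9477 between PAE and C, by -7472 to 15816 between PAE and PF, and by -9885 to 13404 between PF and C. Covered DNA differed by 0.197 to 4.79 Mb, by -3.0 to 7.20 Mb, and by -4.69 to 5.52 Mb, the signs of both PF comparisons turning without PF 16. The PF minus C differences in peaks were also positive without C 14 (1815) and without C 16 (895), and that in covered DNA without C 14 (1.18 Mb). Within minus between group correlation was -0.0028 to 0.0014, positive without PAE 16 (0.00083) and without PF 14. With the data centred within extraction round, C 16 was left out as the only library of its round.

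Scaling by fragments moved the median difference in PAE vs. C from 0.02 to -0.01 and gave 5665 regions higher and 5956 lower at unadjusted p under 0.05. The region of Ptpn14 changed sign with fold enrichment (PAE minus C 0.0464). The 2 PAE vs. C calls lost the FDR threshold in 21 of 50 values under alternatives. Of the 8 other regions of smallest p, 5 passed it in 1 or 2 alternatives, chr19:47223465-47224054 (lowest FDR 0.0306), chr19:56458248-56458714, chr11:81904750-81905160, chr18:78146602-78147652, and chr2:119032909-119033498, and the region starting at chr5:171255848 passed it without PF 14 (FDR 0.0189). Replicate numbers marked the same animal across tissues but not across groups, and deviations of same-numbered WBC libraries correlated at -0.016 to 0.0067 over 10 pairs, so the block is no pairing, and 1 library of 11 correlated best with its own number. Depth limits what a missing peak means.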

Other observations

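When only the 70773 regions with a peak in every library were tested, 1 region passed an FDR of 0.05 in PAE vs. C (limma FDR = 0.0359), named here after its values were seen. At chr2:218560659-218562005, heights were 85.3, 134, 75.0, and 149 fragments in PAE, 120, 100.1, and 73.1 in PF, and 14.5, 12.1, 79.5, and 60.6 in C 13 to 16. C 13 and C 14, both of the first breeding cohort, were low, and C 15 and C 16 stood near the other groups. Over all regions its difference was 1.81 (SE 0.44, limma FDR = 0.982), with 3.02 in the first cohort and 0.61 in the second. In the hypothalamus of the same animals C 13 had no peak, C 14 had 11.3 fragments, C 15 and C 16 had 73.5 and 59.2, and PAE animals had 92.6, 82.0, 81.7, and 109. Both libraries labelled C 13 and both labelled C 14 were low at this locus, though the C 14 WBC library went against the sex of the animals.

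The first 10 Mb of chromosome 13, singled out after the values were seen, held 374 WBC regions, of which 15 were higher and 24 lower in PAE at unadjusted p under 0.05, 10.4% in all, against 4.55% of all regions. The study's tissue-concordant list has 21 regions in this stretch and 18 of them had a WBC region, 5 higher and 6 lower at unadjusted p under 0.05, on a list with 32.2% past this threshold and chosen in part on these libraries. Of the higher ones, chr13:2214879, chr13:2538728, chr13:8840844, and chr13:8865962 entered only through PAE, and of the lower ones chr13:8090191 only through C. Their p is no evidence of a difference. How many of the 374 entered in this way was not counted.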
